A study of Mus musculus with 9 samples.

Results

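The reads of 500 kb windows along mouse chromosomes 17, 18 and 19 were followed in mouse bone marrow cells of C57BL/6N background that the p185 form of the BCR/ABL oncogene had transformed into cell lines (BCR/ABLp185+). Every gene was placed by the smallest start of its exons in GRCm38, windows were laid from position 0, and the reads of all genes starting in a window were summed in each library. Genes started in 440 windows, 172 on chromosome 17, 157 on chromosome 18 and 111 on chromosome 19, out of 5156 windows with genes on all chromosomes. These windows held the starts of 3697 of the 50686 genes. The 3 chromosomes were chosen by the level of their genes in Stat5a-/- against wt cells, whose median was raised, so all values of that comparison describe the choice and carry no test. The comparison of Stat5b-/- with wt did not enter the choice but uses the same wt libraries.

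The data were 9 RNA-seq libraries of polyadenylated RNA, 3 technical replicates of 1 line for each of the genotypes wt, Stat5a-/- and Stat5b-/-. All lines carried BCR/ABLp185 and grew in the same medium. As each genotype is a single immortalized line, genotype and line cannot be told apart, and spreads and adjusted p values measure only the difference between technical replicates. The labels call the knockout samples wt lines in 1 text field, while their titles, sources and genotype fields name the knockout. Stat5a had 43.5 ± 6.61 normalized CPM (CPM, counts relative to the library size after TMM scaling; SD, n = 3) in wt libraries, 12.4 ± 0.849 in Stat5a-/- and 83.2 ± 10.3 in Stat5b-/- libraries. Stat5b had 106 ± 2.5 in wt libraries, 141 ± 14.3 in Stat5a-/- and 63.1 ± 7.53 in Stat5b-/- libraries. Neither gene lies on the 3 chromosomes. Libraries held between 11948136 and 19016396 counted reads. The summed level of 11 B lineage markers was 4936 to 5325 normalized CPM in wt libraries, 6743 to 7269 in Stat5a-/- and 5764 to 6590 in Stat5b-/- libraries. The sum of 12 T cell markers, all of which had reads in every library, was 773 to 1066 in wt libraries, 1161 to 1412 in Stat5a-/- and 1721 to 2463 in Stat5b-/- libraries. The sum of 8 myeloid markers was 5.01 to 7.74 in wt, 5.15 to 6.78 in Stat5a-/- and 9.27 to 11.02 in Stat5b-/- libraries. That of 7 erythroid markers was 11.5 to 13.996 in wt, 11.5 to 14.6 in Stat5a-/- and 2.72 to 3.78 in Stat5b-/- libraries. The part of these cell types in the results was not tested. In bulk RNA, fewer cells of a type and less RNA per cell cannot be told apart.

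STAT5A and STAT5B are closely related transcription factors that are activated by kinases of the JAK family and by BCR/ABL, and bind DNA as dimers at palindromic sites. A change in the number of copies of a chromosome usually shifts the RNA of most of its genes together by a similar ratio, while regulation by a transcription factor acts on single genes or clusters. The number of copies was not measured in these lines. Where 3 copies stand in place of 2, the ratio is 1.5 and its log2 is 0.58, and this value is used below as a yardstick of size only.

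The promoters of 4 genes are shown because these genes lead the highest and the lowest window of chromosomes 17 and 19 in Stat5a-/- cells. Rps6ka2 (a ribosomal S6 kinase that acts below ERK) and Rfk (riboflavin kinase) lead the highest windows, and Pde10a (a phosphodiesterase of cyclic nucleotides) and Tcf7l2 (a transcription factor of the Wnt pathway) the lowest. The 250 bases before the start are given 5′ to 3′ from RefSeq on GRCm38.p6, all on the plus strand, at chr17:7169865-7170114, chr19:17393793-17394042, chr17:8801495-8801744 and chr19:55741560-55741809. Capitals mark the GC box GGGCGG on either strand, and overlapping matches run together.
Rps6ka2: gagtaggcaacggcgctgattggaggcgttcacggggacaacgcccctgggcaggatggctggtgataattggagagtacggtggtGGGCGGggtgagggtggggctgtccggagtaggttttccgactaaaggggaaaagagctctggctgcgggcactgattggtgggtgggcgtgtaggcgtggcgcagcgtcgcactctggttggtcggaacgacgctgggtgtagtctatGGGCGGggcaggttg
Rfk: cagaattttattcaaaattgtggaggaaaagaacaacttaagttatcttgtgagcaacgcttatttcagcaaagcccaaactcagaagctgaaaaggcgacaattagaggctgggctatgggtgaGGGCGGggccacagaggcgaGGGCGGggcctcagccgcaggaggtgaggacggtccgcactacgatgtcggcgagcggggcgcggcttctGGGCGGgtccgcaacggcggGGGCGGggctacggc
Pde10a: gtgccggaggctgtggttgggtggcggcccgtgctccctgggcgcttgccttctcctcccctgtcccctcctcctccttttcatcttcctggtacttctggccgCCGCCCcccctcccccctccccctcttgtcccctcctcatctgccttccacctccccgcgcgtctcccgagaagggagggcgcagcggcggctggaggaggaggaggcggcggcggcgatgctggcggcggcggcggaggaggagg
Tcf7l2: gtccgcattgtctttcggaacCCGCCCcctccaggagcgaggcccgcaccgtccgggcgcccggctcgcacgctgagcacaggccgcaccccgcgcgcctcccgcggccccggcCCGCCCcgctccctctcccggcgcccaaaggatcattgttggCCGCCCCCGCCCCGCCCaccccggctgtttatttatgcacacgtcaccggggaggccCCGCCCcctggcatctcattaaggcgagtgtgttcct
The 4 stretches held 2, 4, 1 and 6 GC boxes, and 32.7% of 32851 mouse promoters of the same length held at least 1. The STAT motif TTCNNNGAA was searched on both strands and was not in any of the 4 stretches, while 7.02% of all promoters and 6.78% of the 2670 promoters on the 3 chromosomes held it. The start used for Pde10a lies 276 kb after the first start of that gene in the count table, within the same window.

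Chromosome 17 carries the major histocompatibility complex (MHC), chromosome 18 the clustered protocadherins, and chromosome 19 the Ms4a family. All 3 took a higher share of the reads in Stat5a-/- than in wt cells. Of all counted reads, chromosome 17 took between 5.09% and 5.72% in wt, between 7.01% and 7.79% in Stat5a-/- and between 5.35% and 5.91% in Stat5b-/- libraries. Chromosome 18 took 1.90% to 1.97% in wt libraries, 2.43% to 2.57% in Stat5a-/- and 1.75% to 1.93% in Stat5b-/- libraries. Chromosome 19 took 3.91% to 4.18% in wt libraries, 5.25% to 5.67% in Stat5a-/- and 3.68% to 3.82% in Stat5b-/- libraries. On each chromosome all Stat5a-/- libraries lay above all wt libraries. The Stat5b-/- libraries overlapped wt on chromosomes 17 and 18 and lay below wt on chromosome 19, where the exact two-sided permutation test over libraries gave p = 0.10, the smallest p that 3 against 3 libraries allow, and 0.30 after adjustment over the 3 chromosomes.

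Windows with a mean of at least 10 normalized CPM over the 9 libraries were compared further, which left 287 windows, 112 on chromosome 17, 91 on chromosome 18 and 84 on chromosome 19. The median log2 ratio of Stat5a-/- to wt was 0.47 ± 0.00541 on chromosome 17, 0.48 ± 0.0738 on chromosome 18 and 0.38 ± 0.0305 on chromosome 19 (SD of the medians of the 3 Stat5a-/- libraries). Over the 2312 windows of chromosomes 1 to 16 the same median was -0.07, and the medians of these 16 chromosomes ran from -0.15 on chromosome 3 to 0.02 on chromosome 7. Relative to chromosomes 1 to 16, the medians were 0.53, 0.55 and 0.44, which are ratios of 1.45, 1.46 and 1.36 beside the yardstick of 1.5. The X chromosome had a median of -0.12. With plain CPM in place of TMM the median of chromosomes 1 to 16 was -0.19, and a change of scaling moves all windows of a library alike, so it leaves these distances almost as they are. In Stat5b-/- against wt the medians were 0.13 ± 0.0327, -0.06 ± 0.0789 and 0.0028 ± 0.0355 on chromosomes 17, 18 and 19, within the range of -0.08 to 0.14 of the medians of chromosomes 1 to 16.

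**Figure D1:**
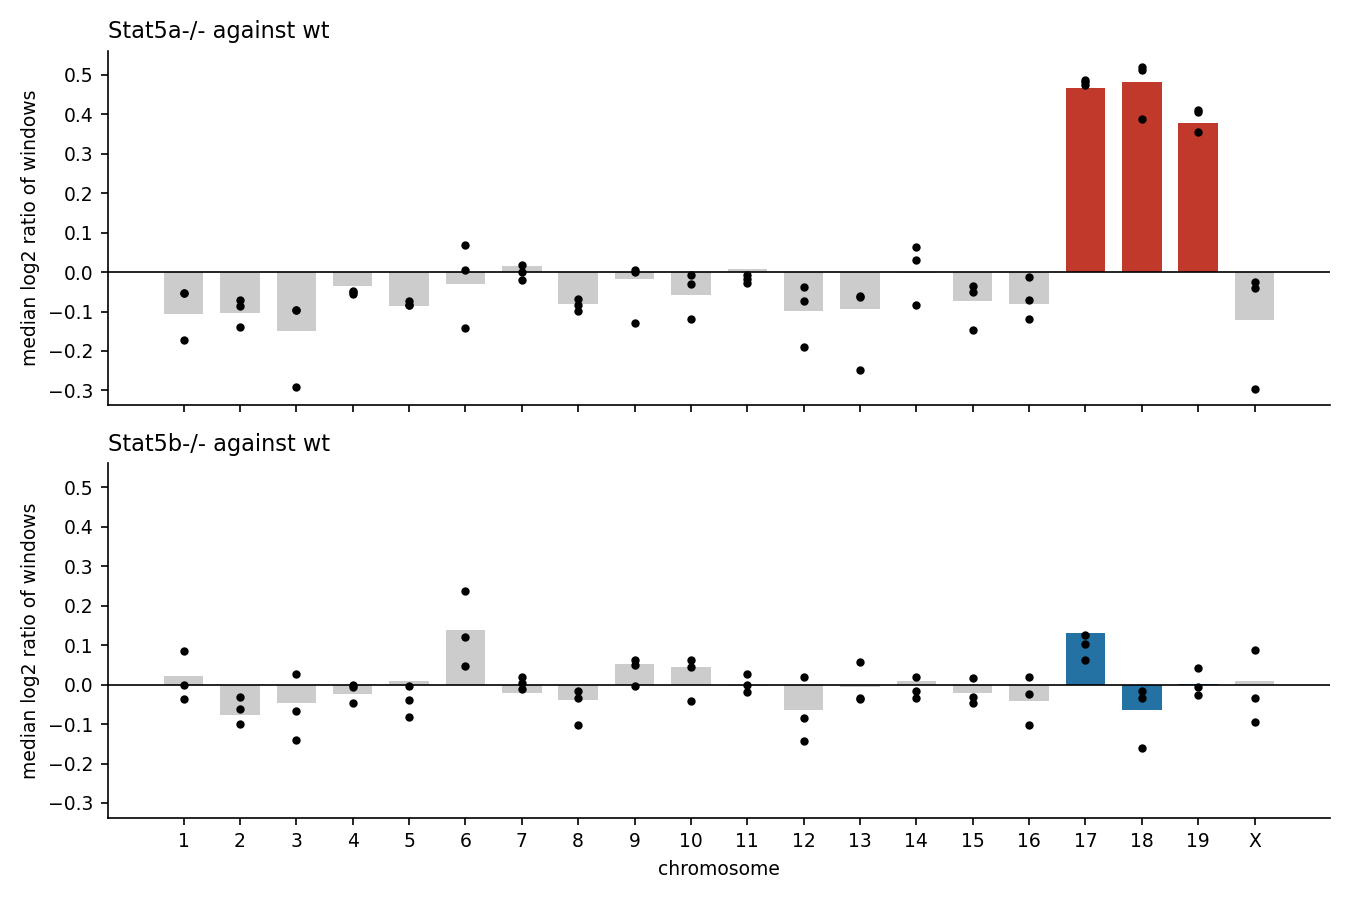
Median log2 ratio of window normalized CPM for each chromosome (x axis) in Stat5a-/- (top) and Stat5b-/- (bottom) against wt. Bars are medians of the ratio of line means, black points are the 3 libraries of the line each against the mean of wt, and colour marks chromosomes 17, 18 and 19, which stand at 0.47, 0.48 and 0.38 in Stat5a-/- and at 0.13, -0.06 and 0.0028 in Stat5b-/-.

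The higher level in Stat5a-/- cells ran along the whole length of the 3 chromosomes. Of 27 sections of 10 Mb, 24 held at least 5 windows, and their median was above 0 in all 24 in Stat5a-/- and in 12 in Stat5b-/- cells. Section medians in Stat5a-/- went from 0.14 in the section of chromosome 19 that starts at 50 Mb to 0.69 in the section of chromosome 17 that starts at 30 Mb, which holds the MHC. The longest unbroken runs of windows above 0 were 42 windows on chromosome 17 from 15 to 43 Mb, 31 windows on chromosome 18 from 5.5 to 37 Mb and 20 windows on chromosome 19 from 40 to 55.5 Mb. The interquartile range of the window ratios in Stat5a-/- was 0.38 on these chromosomes, beside 0.40 on chromosomes 1 to 16. In Stat5b-/- the corresponding ranges were 0.49 and 0.52.

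**Figure D2:**
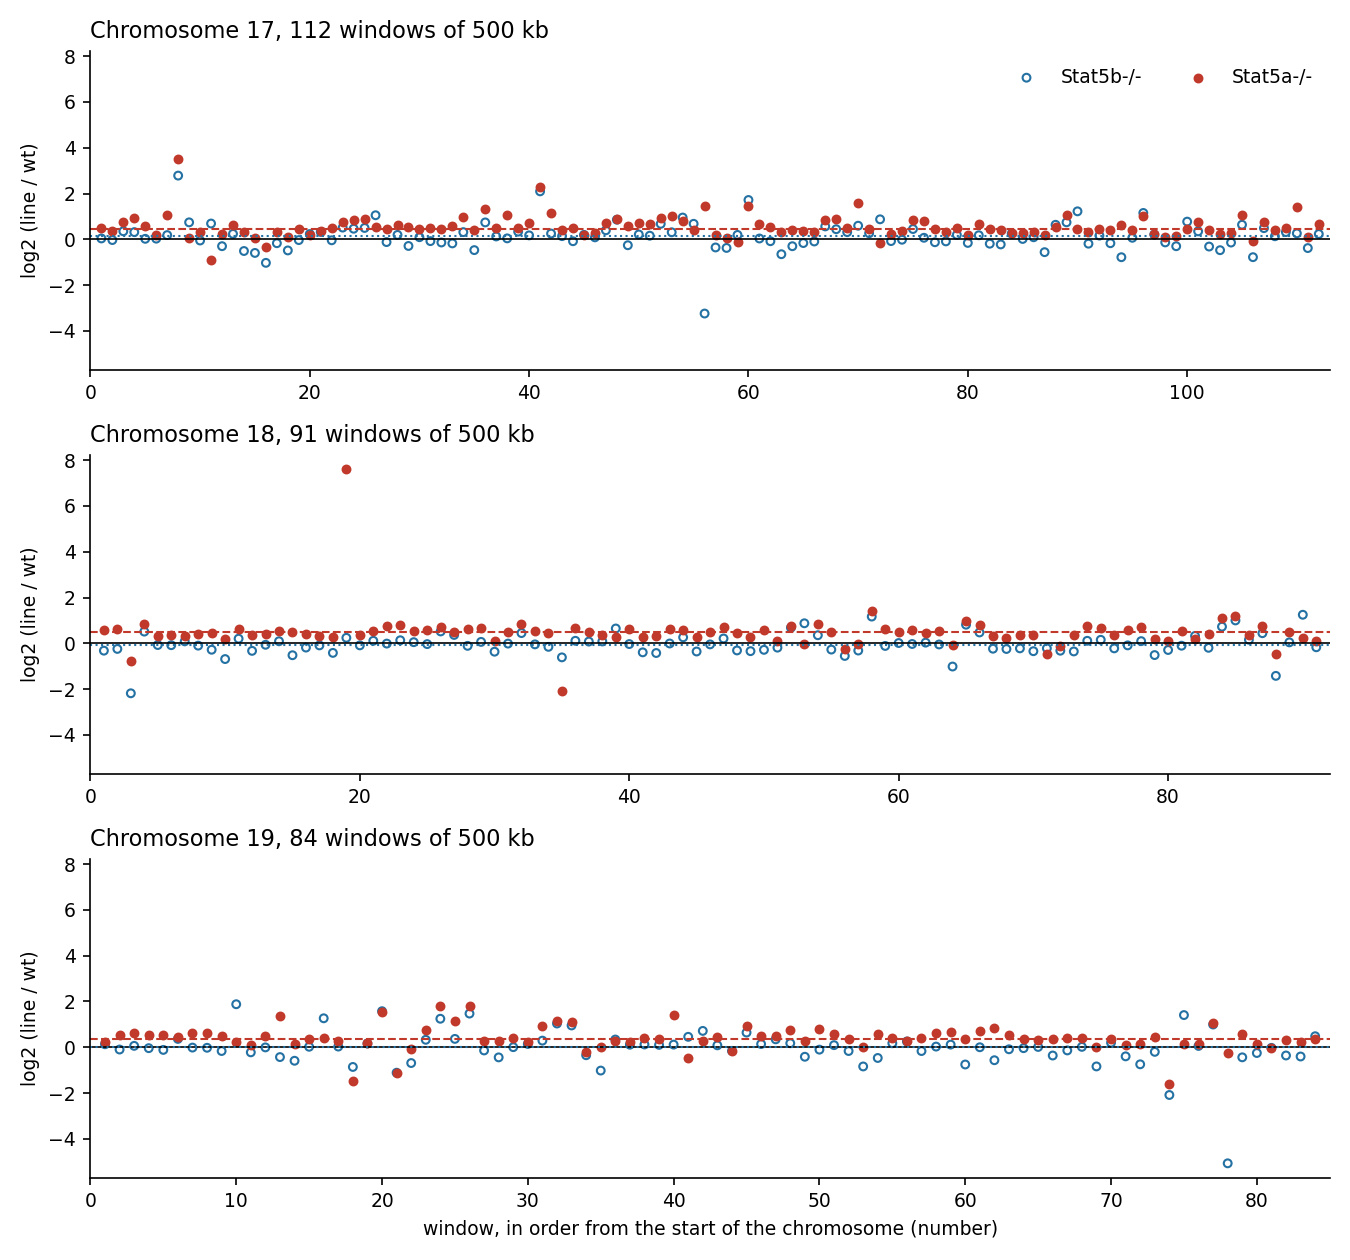
Log2 ratio of normalized CPM to wt (y axis) of each window with at least 10 normalized CPM, in order from the start of chromosomes 17, 18 and 19 (x axis), for Stat5a-/- (filled) and Stat5b-/- (open). The dashed line is the Stat5a-/- median and the dotted line the Stat5b-/- median of the chromosome. The filled points form a band near the dashed lines at 0.47, 0.48 and 0.38, with single points far above or below it.

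All 3 Stat5a-/- libraries lay above all 3 wt libraries in 210 of the 287 windows, beside 26.0% of the 2725 windows of the whole genome, and below them in 12 windows, beside 28.9%. In 65 windows the libraries overlapped. These counts follow from how the chromosomes were chosen. Relative to the median of chromosomes 1 to 16, a ratio within 0.25 of the yardstick of 1.5 was found for 57.5% of the windows in Stat5a-/-, for 12.3% on chromosomes 1 to 16, and for 14.6% of the same windows in Stat5b-/-. Among 115 windows with 1 or 2 tested genes the interquartile range was 0.44 and 15 windows were at or below 0, among 91 windows with 3 to 5 tested genes it was 0.39 with 8 such windows, and among 81 windows with 6 or more it was 0.28 with 1 such window. Their medians were 0.41, 0.45 and 0.49.

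Of the 287 windows, 24 had a log2 ratio of 0 or less in Stat5a-/-, 5 of them on chromosome 17, 9 on chromosome 18 and 10 on chromosome 19. Over the whole genome 53.5% of windows were at or below 0. The windows nearest to this limit were that of Hells on chromosome 19 at -0.01 inside it and that of Pum3 on chromosome 19 at 0.01 outside it. Of the 24 windows, 1 pair adjoined each other. The most in any section of 10 Mb was 3. This was so on chromosome 18 from 50 Mb and on chromosome 19 from 10, 30 and 50 Mb. In 22 of the 24 windows the most-read gene gave more than 50% of the reads, and this was also so in 181 of the other 263 windows. Without the most-read gene, 8 of the 24 windows were above 0, 10 stayed at or below 0, and 6 gave no ratio. These 6 held no other gene, or their other genes had no reads in wt, in Stat5a-/- or in both. The same step over the 287 windows left 261 with a ratio, of which 53 (20.3%) were at or below 0. The minimum of 10 normalized CPM was set before this step and not on the reads left. Some of these ratios rest on very few reads, as in the Tcf7l2 window, where the most-read gene gave 99.7%. With plain CPM and all genes 38 of 287 windows (13.2%) were at or below 0, beside 24 of 287 (8.36%). Of the 55 tested genes in the 24 windows, 14 had a log2 fold change above 0, beside 83.7% of the 1475 tested genes of the 3 chromosomes. As these windows were picked for a ratio of 0 or less, a low count follows from the choice. In 12 of the 24 windows all Stat5a-/- libraries were below wt and in the other 12 the libraries overlapped.

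**Figure D3:**
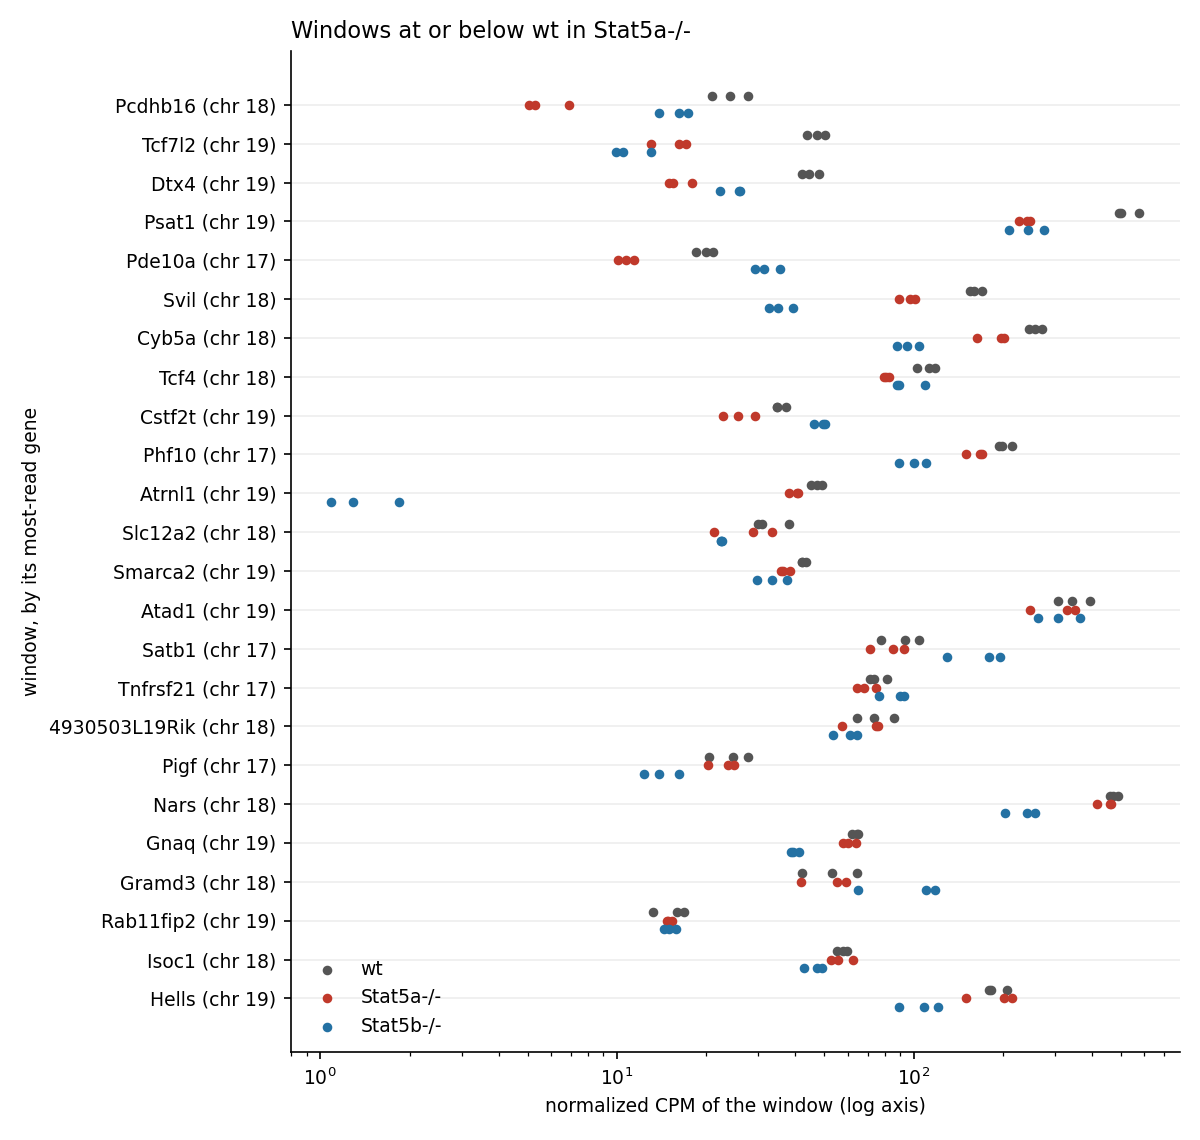
Normalized CPM (log axis) in each of the 9 libraries for the 24 windows with a Stat5a-/- to wt log2 ratio of 0 or less, named by their most-read gene and ordered from the lowest ratio at the top. Points are libraries of wt (grey), Stat5a-/- (red) and Stat5b-/- (blue). In the upper rows the red points lie left of the grey points, from Pcdhb16 at a log2 ratio of -2.07 on, and in the lower rows they overlap.

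On chromosome 18 the lowest window in Stat5a-/- was the one from 37 to 37.5 Mb, which holds 32 genes and genes of the protocadherin beta cluster, a row of cell adhesion genes of which neurons use a varying selection. It had 20.9, 24.1 and 27.7 normalized CPM in wt libraries, 5.31, 5.06 and 6.89 in Stat5a-/- and 16.3, 17.4 and 13.9 in Stat5b-/- libraries. The 3 groups did not overlap, and the Stat5a-/- log2 ratio was -2.07 ± 0.18 (SE), with all 6 tested genes below 0. Pcdhb16 had 9.04 ± 0.97 normalized CPM in wt and 2.61 ± 0.727 in Stat5a-/- libraries, and Pcdhb17 had 5.03 ± 0.764 and 1.36 ± 0.213. It was the only window with 6 or more tested genes among the 24. The window from 4.5 to 5 Mb had 160, 155 and 170 normalized CPM in wt and 96.9, 89.2 and 101 in Stat5a-/- libraries, led by Svil (supervillin, an actin-binding protein). The window from 84.5 to 85 Mb had 256, 270 and 245 in wt and 196, 201 and 164 in Stat5a-/- libraries, led by Cyb5a (cytochrome b5), and without Cyb5a its log2 ratio was 0.55. Of the 4 tested genes of that window, 2 were above 0.

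On chromosome 19 the lowest window was that of Tcf7l2 from 55.5 to 56 Mb, with 47.4, 43.9 and 50.3 normalized CPM in wt libraries, 13.1, 17.2 and 16.2 in Stat5a-/- and 10.5, 13.02 and 9.91 in Stat5b-/- libraries. Tcf7l2 gave 99.7% of its reads. The window from 12 to 12.5 Mb was led by Dtx4, an E3 ligase of the Deltex family that takes part in Notch signalling, and had 48.0, 42.1 and 44.3 normalized CPM in wt and 17.9, 15.4 and 15.01 in Stat5a-/- libraries. The window from 15.5 to 16 Mb was led by Psat1, an enzyme of serine synthesis, and had 501, 492 and 577 normalized CPM in wt and 242, 247 and 226 in Stat5a-/- libraries. In all 3 windows the Stat5a-/- libraries lay below the wt libraries, at log2 ratios of -1.61 ± 0.13, -1.47 ± 0.10 and -1.14 ± 0.08. Without Psat1 the last was 0.09.

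On chromosome 17 the lowest window was that of Pde10a from 8.5 to 9 Mb, with 21.1, 19.9 and 18.5 normalized CPM in wt libraries, 10.7, 11.4 and 10.1 in Stat5a-/- and 29.1, 35.6 and 31.3 in Stat5b-/- libraries. The groups did not overlap, with Stat5a-/- lowest and Stat5b-/- highest. Pde10a itself had 119, 158 and 127 reads in wt libraries, 3, 1 and 1 in Stat5a-/- and 248, 299 and 234 in Stat5b-/- libraries. The window of Phf10, a subunit of a chromatin remodelling complex, from 14.5 to 15 Mb had a log2 ratio of -0.32 ± 0.07, which became 0.52 without Phf10. The window of Satb1, a chromatin organizer of lymphoid cells, from 51.5 to 52 Mb had a log2 ratio of -0.14 ± 0.17 with overlapping libraries.

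Other windows lay far above the band in Stat5a-/-. The window of chromosome 18 from 21.5 to 22 Mb had 1.03, 1.37 and 1.63 normalized CPM in wt libraries, 262, 274 and 245 in Stat5a-/- and 0.884, 1.98 and 1.89 in Stat5b-/- libraries, a log2 ratio of 7.602 ± 0.20 in Stat5a-/-. Klhl14, a BTB-Kelch protein gene, gave 79.2% of its reads and had 10, 20 and 23 reads in wt and 3018, 2733 and 2119 in Stat5a-/- libraries. On the same chromosome the windows of Smim3 from 60 to 60.5 Mb and of Mbp (myelin basic protein) from 82 to 82.5 Mb had log2 ratios of 1.41 ± 0.09 and 1.19 ± 0.06 in Stat5a-/-, and of 1.17 and 0.999 in Stat5b-/-. On chromosome 17 the window of Rps6ka2 from 7 to 7.5 Mb had 3.85, 1.87 and 3.09 normalized CPM in wt libraries, 30.1, 29.1 and 40.1 in Stat5a-/- and 22.7, 21.2 and 16.8 in Stat5b-/- libraries. Both knockout lines lay above wt in it. The window from 30.5 to 31 Mb, with the dynein gene Dnah8 and the noncoding 1700097N02Rik, and that of Rftn1 (a lipid raft protein) from 49.5 to 50 Mb had log2 ratios of 2.29 ± 0.08 and 1.599 ± 0.09 in Stat5a-/-, and of 2.10 and 0.595 in Stat5b-/-. Dnah8 and 1700097N02Rik were counted without strand, so reads of overlapping genes on opposite strands cannot be told apart. On chromosome 19 the windows of Rfk from 17 to 17.5 Mb, Anxa1 (annexin A1) from 20 to 20.5 Mb and Tle4 (a co-repressor of the Groucho family) from 14 to 14.5 Mb had log2 ratios of 1.80 ± 0.09, 1.80 ± 0.23 and 1.55 ± 0.06 in Stat5a-/-, and of 1.25, 1.47 and 1.58 in Stat5b-/-. In these 7 windows, too, all libraries of both knockout lines lay above wt, and both comparisons use the same wt libraries. Without Mbp, which gave 96.0% of its reads, the Mbp window had log2 ratios of 0.42 in Stat5a-/- and -0.0054 in Stat5b-/-. Without their most-read gene, the windows of Smim3, Dnah8 and Rfk stayed above 0 in both lines, and those of Rftn1, Anxa1 and Tle4 gave no ratio. The Tle4 window had 163, 157 and 163 normalized CPM in Stat5a-/-, 172, 165 and 154 in Stat5b-/- and 51.0, 56.9 and 57.1 in wt libraries.

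In Stat5b-/- against wt, windows of the 3 chromosomes moved in both directions and about as often as elsewhere. edgeR's quasi-likelihood test was run on the windows of all chromosomes with Benjamini-Hochberg adjustment, and 326 of its windows were on these chromosomes. At an adjusted p under 0.05, 74 rose, beside 22.7% of the 3308 windows tested on all chromosomes, and 71 fell, beside 23.4%. These 74 and 71 windows are 22.7% and 21.8% of the 326. Chromosome 17 had 36 windows that rose (28.6%) and 20 that fell (15.9%) of 126, so more rose than fell there. Chromosome 18 had 20 (18.3%) and 27 (24.8%) of 109, and chromosome 19 had 18 (19.8%) and 24 (26.4%) of 91. The overlap-based counts over the 287 windows were 78 with all Stat5b-/- libraries above wt, beside 27.1% over all chromosomes, and 79 below, beside 29.3%. A log2 ratio of 0 or less was found for 140 windows, beside 50.2%.

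The largest fall in Stat5b-/- was in the window of chromosome 19 from 57.5 to 58 Mb, which holds only Atrnl1 (an attractin-like membrane protein). It had 47.2, 49.1 and 45.1 normalized CPM in wt, 1.84, 1.09 and 1.29 in Stat5b-/- and 40.7, 38.0 and 40.4 in Stat5a-/- libraries, a Stat5b-/- log2 fold change of -5.06 ± 0.16 (adjusted p = 2.2e-09, edgeR). The window of chromosome 17 from 40 to 40.5 Mb, with the cysteine-rich secretory protein genes Crisp1 and Crisp3, had 12.1, 14.8 and 13.8 in wt, 1.29, 1.5 and 1.51 in Stat5b-/- and 43.1, 45.3 and 23.6 in Stat5a-/- libraries. Its Stat5b-/- log2 fold change was -3.24 ± 0.29 (adjusted p = 5.7e-06, edgeR). The Svil window of chromosome 18 fell by 2.18 ± 0.09 on the log2 scale (adjusted p = 2.2e-08, edgeR). The 3 largest rises included 2 windows with under 10 normalized CPM. That of Ptprm, a receptor tyrosine phosphatase, from 66.5 to 67 Mb on chromosome 17 had 0 reads in every wt library and 18, 31 and 20 reads of Ptprm in Stat5b-/- libraries, at least 28.4-fold higher when wt is set at 3 reads over the group. That of Aldh1a7 from 20.5 to 21 Mb on chromosome 19 had 0 reads in wt, 3, 2 and 2 reads of Aldh1a7 in Stat5b-/- and 21, 20 and 15 in Stat5a-/- libraries. It passed the filter on low counts through the Stat5a-/- libraries, and its Stat5b-/- value rests on these few reads and 1 read of Tmc1. The Rps6ka2 window also rose, with a log2 difference from wt of 2.80 ± 0.24 (adjusted p = 4.1e-06, edgeR).

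The gene level showed the same shift in Stat5a-/- as the windows. Of 13840 genes that passed edgeR's filter on low counts, 1475 started on chromosomes 17, 18 or 19. Their median log2 fold change in Stat5a-/- was 0.45, beside -0.05 for the 11867 tested genes of chromosomes 1 to 16. It was 0.51 on chromosome 17 over 679 genes, 0.41 on chromosome 18 over 325 genes and 0.39 on chromosome 19 over 471 genes, and 83.7% of the 1475 genes were above 0. At an adjusted p under 0.05, 764 genes were higher, beside 19.1% of all genes tested, and 82 were lower, beside 16.9%. All Stat5a-/- libraries lay above wt for 883 genes, beside 24.5%, and below wt for 110, beside 24.9%. This contrast chose the chromosomes, so these counts describe the choice. In Stat5b-/- the median was 0.04, beside 0.001 on chromosomes 1 to 16. There, 374 of the 1475 genes rose (25.4%), beside 23.4% of all genes tested, and 303 fell (20.5%), beside 22.7%. All Stat5b-/- libraries lay above wt for 415 genes, beside 26.3%, and below wt for 367, beside 27.8%. The interquartile range of gene values was 0.57 in Stat5a-/- and 0.82 in Stat5b-/-, and on chromosomes 1 to 16 it was 0.61 and 0.81.

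**Figure D4:**
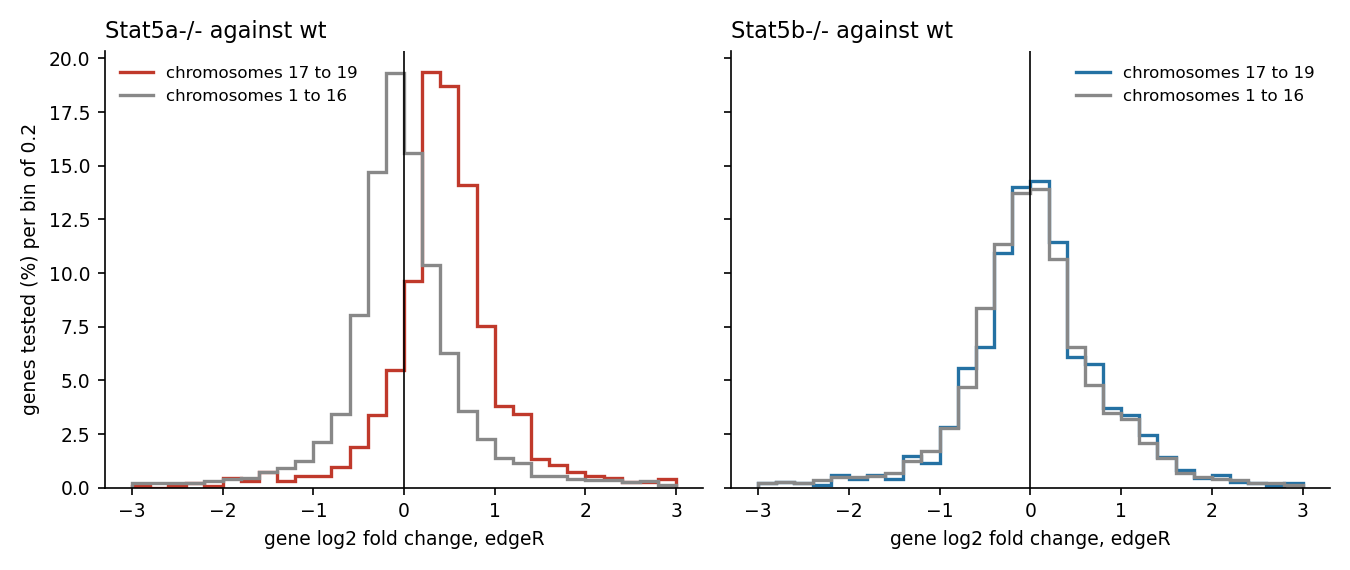
Share of tested genes (y axis, % per bin of 0.2) by edgeR log2 fold change (x axis) in Stat5a-/- (left) and Stat5b-/- (right) against wt, for the 1475 genes of chromosomes 17 to 19 (colour) and the 11867 genes of chromosomes 1 to 16 (grey). In Stat5a-/- the coloured outline is moved to the right, with medians of 0.45 and -0.05, and in Stat5b-/- the outlines lie on each other, with medians of 0.04 and 0.001. Genes beyond 3 in either direction are not drawn.

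The 1475 genes were divided into 3 equal groups by mean level over the 9 libraries, at 9.55 and 58.7 normalized CPM. The median log2 fold change was 0.37 in the low, 0.44 in the middle and 0.49 in the high group, and the interquartile range was 0.99, 0.49 and 0.42. On chromosomes 1 to 16, genes of the same levels had medians of 0.01, -0.08 and -0.05. Relative to the median of chromosomes 1 to 16, 57.3% of genes in the high group had a ratio to wt within 0.25 of 1.5. Among genes of the same level on chromosomes 1 to 16 this share was 13.5%. The log2 fold change against wt itself was above 0 for 93.1% of the high group and for 43.4% there. Protein-coding genes had a median of 0.47 over 1290 genes, the 30 lincRNA genes 0.39 and the 26 antisense genes 0.63. The 82 processed pseudogenes had a median of 0.04 in Stat5a-/- and -0.28 in Stat5b-/-. Processed pseudogenes are copies of transcripts whose parent genes often lie on other chromosomes, so their reads are uncertain. The 43 tested genes in windows under 10 normalized CPM had a median of 0.09.

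Single genes stood far outside the shift in Stat5a-/-. Gldc, the glycine decarboxylase of chromosome 19, had 0 reads in all wt and all Stat5b-/- libraries and 259, 213 and 206 reads in Stat5a-/- libraries, at least 313-fold higher when wt is set at 3 reads over the group. Ston1, an endocytic adaptor of chromosome 17, had 0, 1 and 1 reads in wt libraries, 1022, 784 and 858 in Stat5a-/- and 2, 13 and 5 in Stat5b-/- libraries. Dmrt2, a transcription factor gene of chromosome 19, had 0 reads in all wt and Stat5b-/- libraries and 25, 18 and 19 in Stat5a-/- libraries. With Klhl14 and Aldh1a7 these had the 5 highest log2 fold changes among genes with all libraries above wt. Among the 5 lowest, Garem1, an adaptor of growth factor receptors on chromosome 18, had 274, 305 and 333 reads in wt, 0 in all Stat5a-/- and 1, 4 and 0 in Stat5b-/- libraries. Vldlr, the very low density lipoprotein receptor of chromosome 19, had 452, 607 and 554 reads in wt, 2, 1 and 0 in Stat5a-/- and likewise 2, 1 and 0 in Stat5b-/- libraries. Pkdcc, a secreted tyrosine kinase gene, had 58, 73 and 67 reads in wt and at most 1 in any knockout library. Fbxl16, an F-box protein gene, had 162, 168 and 159 reads in wt and at most 3 in any knockout library. Both are on chromosome 17. These genes were near 0 in both knockout lines, while Pde10a was near 0 in Stat5a-/- libraries and not in Stat5b-/- libraries.

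In Stat5b-/- the largest rises were in genes that wt cells barely expressed. F830016B08Rik, an interferon-inducible GTPase gene of chromosome 18, had 0 reads in wt libraries, 2, 2 and 1 in Stat5a-/- and 32, 25 and 19 in Stat5b-/- libraries. Mapk4, an atypical MAP kinase of chromosome 18, had 0, 1 and 0 reads in wt and 72, 66 and 52 in Stat5b-/- libraries. Lrrtm2, a synaptic adhesion gene of chromosome 18, had 3, 0 and 0 reads in wt and 78, 84 and 70 in Stat5b-/- libraries. Batf2, a transcription factor gene of chromosome 19 induced by interferon, had 0, 0 and 1 reads in wt libraries, 5, 5 and 1 in Stat5a-/- and 36, 21 and 26 in Stat5b-/- libraries. Among the falls, Colec12, a scavenger receptor of chromosome 18, had 314, 510 and 376 reads in wt libraries, 75, 62 and 40 in Stat5a-/- and 1, 0 and 0 in Stat5b-/- libraries. Rcan2, a regulator of calcineurin on chromosome 17, had 33, 37 and 24 reads in wt and 0 in all Stat5b-/- libraries, at least 25.4-fold lower when Stat5b-/- is set at 3 reads over the group. Except for Colec12, these genes passed the filter on low counts only through the group in which they were high, so their difference followed from the filter and no p is given. For Colec12 the adjusted p in Stat5b-/- was 1.0e-09 (edgeR).

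Lists of genes with shared functions allowed a view of members on and off these chromosomes. In Stat5a-/- 83.7% of the 1475 tested genes here were above 0. This contrast chose the chromosomes, so a raised level of members here follows from the choice. Of the genes of cytoplasmic ribosomal proteins, 11 tested members on chromosomes 17 to 19 had a median log2 fold change of 0.70 in Stat5a-/- with all 11 above 0, while 72 tested members elsewhere had a median of 0.0048. Rps2 had 402 ± 24.3 normalized CPM in wt and 652 ± 60.8 in Stat5a-/- libraries, and Rps14 had 180 ± 42 and 364 ± 75.2. Ribosomal protein genes have many near-identical pseudogene copies, so their counts are uncertain. Of the genes of the respiratory chain and ATP synthase, 16 tested members on the 3 chromosomes had a median of 0.52 with all 16 above 0, while 79 elsewhere had a median of -0.10. Atp5a1, the alpha subunit of ATP synthase, had 790 ± 36.9 in wt and 1168 ± 89 in Stat5a-/- libraries, and Ndufs8, a subunit of complex I, had 328 ± 31.3 and 470 ± 18.8. Of zinc finger genes, 52 tested members here had a median of 0.50 and 249 elsewhere a median of -0.05. Of 3 tested proteasome genes here, Psmb1 had a log2 fold change of 0.32, and Psmb8 and Psmb9, which belong to the immunoproteasome and are MHC-linked, had 0.84 and 1.88, while 39 members elsewhere had a median of -0.18.

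In Stat5b-/- 23.4% of all genes tested rose and 22.7% fell. The ribosomal list had a median of -0.15 here, with 1 of 11 genes that rose and 2 that fell, and -0.20 elsewhere. The respiratory list had a median of -0.16 here, with 1 of 16 that rose and 4 that fell, and -0.28 elsewhere. The zinc finger list had a median of 0.31 here, with 15 of 52 that rose and 3 that fell, and 0.16 elsewhere, with 65 of 249 that rose and 32 that fell. The proteasome list had a median of 0.75 here, with 2 of 3 that rose, which were Psmb8 and Psmb9, and -0.35 elsewhere, with 2 of 39 that rose and 14 that fell. Among the genes of these lists with the highest levels, Ndufs8 fell by 0.52 ± 0.11 (adjusted p = 0.0022, edgeR) and Rps2 by 0.42 ± 0.13 (adjusted p = 0.016, edgeR) on the log2 scale.

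The list of the MHC and antigen presentation lies on chromosome 17, with Cd74 on chromosome 18. Of 40 members, 27 were tested and 7 had no reads. The median log2 fold change of the 27 was 1.24 in Stat5a-/-, with values from 0.47 to 2.56, and 1.29 in Stat5b-/-, where 25 rose and none fell, beside 23.4% and 22.7% of all genes tested. H2-K1, a class I heavy chain, had 286, 269 and 279 normalized CPM in wt libraries, 689, 742 and 754 in Stat5a-/- and 828, 856 and 829 in Stat5b-/- libraries. Tap1, a peptide transporter, had 59.8, 56.1 and 56.8 in wt libraries, 139, 144 and 149 in Stat5a-/- and 200, 204 and 202 in Stat5b-/- libraries, where its log2 fold change was 1.81 ± 0.09 (adjusted p = 3.7e-09, edgeR). In both genes wt was lowest and Stat5b-/- highest, with no overlap. Cd74, the invariant chain on chromosome 18, had a log2 fold change of 1.04 in Stat5a-/- and of 0.25 ± 0.10 in Stat5b-/- (adjusted p = 0.06, edgeR). H2 genes are near-identical in parts, so reads may be split or lost among them. Of 19 interferon-induced genes 18 were tested, with a median of 1.18 in Stat5a-/- and 1.71 in Stat5b-/-, where 15 rose, beside 23.4% of all genes tested. Those that rose include F830016B08Rik, Batf2, Gm4951 and Gm4841, and Pdcd1lg2 and Ifit3b. The first 4 passed the filter on low counts only through the Stat5b-/- libraries and the others only through the knockout libraries, so these genes had to differ and the count is a description. The same holds for H2-Q2 of the MHC list, which passed only through Stat5b-/-. This list shares Psmb8, Psmb9, Tap1, Tap2 and Cd74 with the MHC list. Eif2ak2, a kinase activated by double-stranded RNA, had 0.23 in both lines (adjusted p = 0.19 in Stat5b-/-, edgeR). With the genes of these lists left out, the window medians in Stat5a-/- were 0.47, 0.48 and 0.37 on chromosomes 17, 18 and 19.

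**Figure D5:**
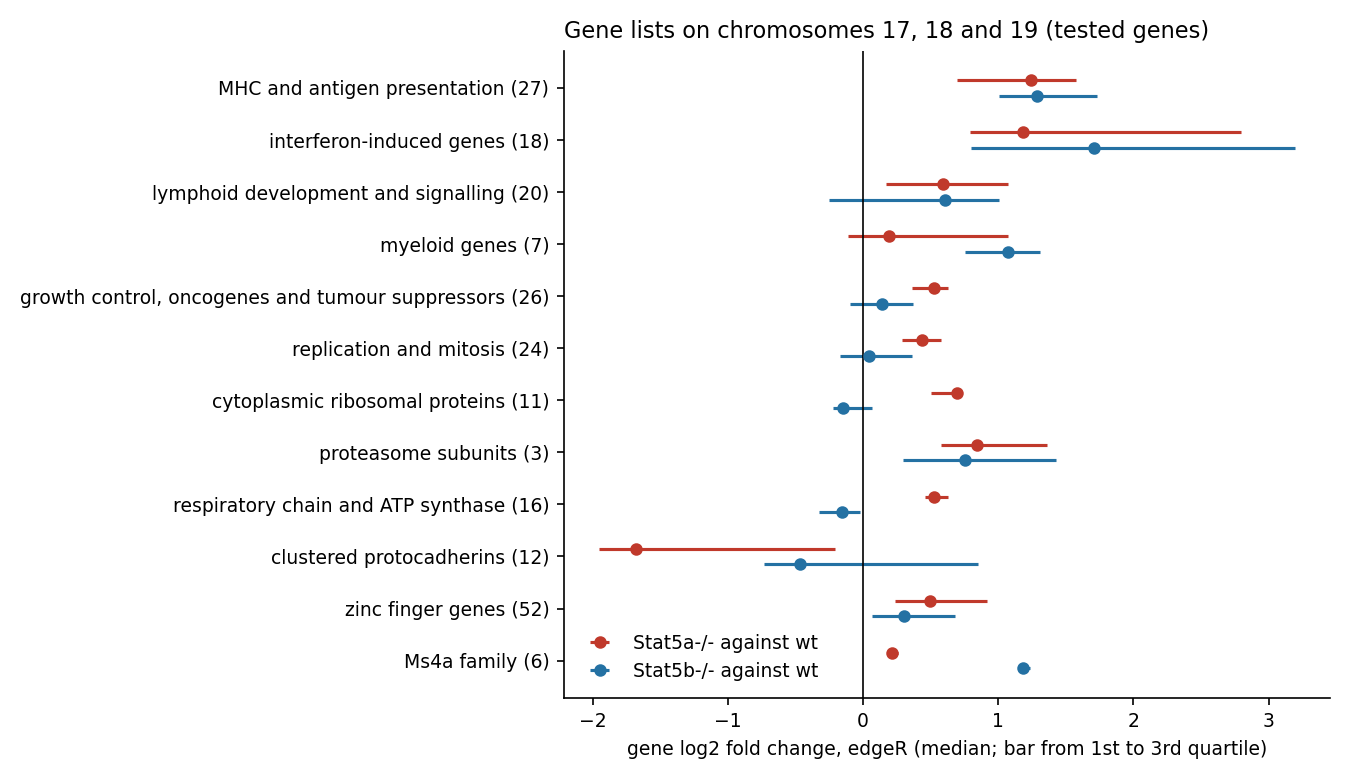
Median edgeR log2 fold change against wt (x axis, points) with a bar from the first to the third quartile, for the tested genes of 12 lists on chromosomes 17 to 19 (number of genes in brackets) in Stat5a-/- (red) and Stat5b-/- (blue). The ribosomal and respiratory lists stand at 0.70 and 0.52 in Stat5a-/- and at -0.15 and -0.16 in Stat5b-/-, the MHC and interferon lists stand above 1 in both lines, and the protocadherins stand at -1.68 in Stat5a-/-.

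The 26 tested genes of growth control had a median log2 fold change of 0.53 in Stat5a-/-, with quartiles of 0.36 and 0.63 and values from -1.36 to 1.69. In Stat5b-/- 6 of them rose and 2 fell, beside 23.4% and 22.7% of all genes tested, with a median of 0.14. Ccnd3, cyclin D3 on chromosome 17, had 2103, 1455 and 1777 normalized CPM in wt libraries, 2918, 2997 and 4182 in Stat5a-/- and 3308, 2953 and 2255 in Stat5b-/- libraries. All knockout libraries lay above wt, and the Stat5b-/- log2 fold change was 0.67 ± 0.18 (adjusted p = 0.0087, edgeR). Pim1, a kinase gene that STAT5 is known to activate, had 158, 119 and 129 in wt libraries, 293, 336 and 384 in Stat5a-/- and 86.9, 83.9 and 64.4 in Stat5b-/- libraries, where it fell by 0.78 ± 0.15 (adjusted p = 7.2e-04, edgeR). The 24 tested genes of replication and mitosis had a median of 0.43 in Stat5a-/-, and 5 rose and 4 fell in Stat5b-/-, beside 23.4% and 22.7% of all genes tested, with a median of 0.05. Tubb5, a beta tubulin, had 3479 ± 384 normalized CPM in wt libraries, 5731 ± 257 in Stat5a-/- and 3952 ± 289 in Stat5b-/- libraries.

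The 20 tested genes of lymphoid development and signalling had a median of 0.59 in Stat5a-/-, with quartiles of 0.17 and 1.07 and values from -1.65 to 2.35. In Stat5b-/- 14 of them rose and 3 fell, beside 23.4% and 22.7% of all genes tested. The B lineage markers given above include Blnk of this list. The sums of B lineage and T cell markers were also higher in Stat5b-/- than in wt libraries with no overlap, and their part in this result was not tested. Lta, lymphotoxin alpha on chromosome 17, had 208, 190 and 208 normalized CPM in wt libraries, 496, 514 and 540 in Stat5a-/- and 60.8, 46.2 and 41.3 in Stat5b-/- libraries, with wt between the knockout lines. Dusp5, an ERK phosphatase of chromosome 19, had 348, 337 and 328 in wt libraries, 319, 297 and 315 in Stat5a-/- and 123, 111 and 98.1 in Stat5b-/- libraries, where it fell by 1.61 ± 0.10 (adjusted p = 4.5e-08, edgeR). Blnk, an adaptor of the B cell receptor, had 535 ± 27.4 in wt libraries, 803 ± 45.3 in Stat5a-/- and 775 ± 69.1 in Stat5b-/- libraries. Of 15 myeloid genes 7 were tested, with a median of 0.20 in Stat5a-/-, and 6 rose in Stat5b-/-, beside 23.4% of all genes tested. The 8 myeloid markers given above include Csf1r, which is also in this list. Their sum was also highest in Stat5b-/- libraries, and its part in this result was not tested. Ms4a6c and Ms4a6d are also in the Ms4a list. Except for Treml2 at 89.8 ± 8.28 and Mpeg1 at 7.3 ± 0.764 normalized CPM in wt, the members looked at were at low levels, such as Csf1r at 0.658 ± 0.188. Genes this low can pass the filter on low counts through the group in which they are high. The count that rose in Stat5b-/- is therefore a description.

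The Ms4a family of chromosome 19 encodes membrane proteins of leukocytes. Of its 19 members 6 passed the filter on low counts, and these 6 rose in Stat5b-/-, beside 23.4% of all genes tested, with a median log2 fold change of 1.18. Their median in Stat5a-/- was 0.21, with values from -0.11 to 0.78. Members at low levels in wt can pass the filter through the group in which they are high, so the count in Stat5b-/- is a description. Ms4a4b, which T cells express, had 57.4, 93.6 and 86.3 normalized CPM in wt libraries, 103, 106 and 78.5 in Stat5a-/- and 214, 123 and 194 in Stat5b-/- libraries. The Stat5a-/- libraries overlapped wt. The sum of T cell markers given above was also highest in Stat5b-/- libraries, and its part in this result was not tested. Of 57 clustered protocadherins 12 were tested, with a median of -1.68 in Stat5a-/- and 2 above 0, and of these Pcdhgb7 had 0.24 ± 0.0988 normalized CPM in wt libraries, 3.37 ± 0.221 in Stat5a-/- and 3.79 ± 1.12 in Stat5b-/- libraries. In Stat5b-/- 3 of the 12 rose and 3 fell, beside 23.4% and 22.7% of all genes tested. Pcdhgb7 passed the filter on low counts only through the knockout libraries, so it had to differ from wt and these counts are a description. None of 165 olfactory and vomeronasal receptor genes on these chromosomes was tested, and 144 of them had no reads in any library.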

How the data were processed

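RNA-seq was measured in 9 libraries of 3 BCR/ABLp185+ lines. The authors trimmed reads with Trimmomatic, mapped them with STAR and deposited counts per gene from featureCounts 1.5.1 on GENCODE M13 (GRCm38), counted over exons without strand and not normalized. Positions are those of the deposited tables, and symbols came from a reference table of gene names for 50376 of 50686 genes. Groups follow the sample titles. Library totals were 11948136 to 19016396 reads. The precision of a low count is limited by its number of reads, and since no molecular identifiers were used, floors cover counting error only.

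Counts of genes and windows were scaled with TMM factors from genes of all 9 libraries. Window log2 ratios compare line means. edgeR 4.0.16 in R 4.3.3 (glmQLFit, glmQLFTest, filterByExpr, 3 groups in 1 fit) tested genes and windows of all chromosomes, with Benjamini-Hochberg adjustment over all of them. The standard error of a fitted change is its size over the square root of F, and that of a window ratio comes from the SDs of the libraries. The steps were tested on simulated data. Tables were made with Python 3.11.15 and pandas 2.3.3.

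Named were the 3 highest and 3 lowest windows of each chromosome in Stat5a-/-, the 3 largest rises and falls among Stat5b-/- windows, the genes with the largest difference in each, the 5 largest rises and falls per line with libraries on 1 side of wt, and up to 6 members with the highest level of each of 13 gene lists. Of the last, only examples are given in the text. The windows, lists and rules were chosen with earlier results of these data known. Alternatives were other scalings (total reads, DESeq2 1.42.0, RLE, TMM from other chromosomes), window sizes, level minimums, windows without their most-read gene, DESeq2 tests, other filters, fits of 2 genotypes, the replicate block and leaving out each library. Added after seeing the data were windows without the MHC and interferon genes and a limit at the median of chromosomes 1 to 16. Libraries of the same number did not deviate together.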

Additional observations from a re-analysis of the deposited data

How the results depend on the processing

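Apart from fits that leave out a library, 103 of 134 recomputed summary values moved by less than the spread between replicates or, for counts, by less than 1.5 times. CPM by total reads gave Stat5a-/- window medians of 0.34, 0.36 and 0.26 on chromosomes 17, 18 and 19 and 38 of 287 windows at or below 0. TMM factors from the other chromosomes gave 0.51 on chromosome 17, 0.42 on chromosome 19 and a gene median of 0.49. Windows of 250 kb gave 0.51 on chromosome 17 and 42 of 404 windows (10.4%) at or below 0, beside 24 of 287 (8.36%). Windows of 1 Mb gave 0.49 on chromosome 17 in Stat5a-/-, 0.17 in Stat5b-/-, 10 of 177 windows (5.65%) at or below 0, and 46 windows that rose and 44 that fell in Stat5b-/-. A minimum of 1 CPM gave 0.45 on chromosome 17 and 37 of 317 windows (11.7%) at or below 0, and one of 50 CPM gave 0.42 on chromosome 19, 0.089 on chromosome 17 in Stat5b-/- and 14 of 234 windows (5.98%) at or below 0. Without the most-read gene of each window, the Stat5a-/- medians were 0.48 on chromosome 17 and 0.39 on chromosome 18, the Stat5b-/- median of chromosome 19 was 0.045, the interquartile range was 0.53 and 53 of 261 windows (20.3%) were at or below 0. Of the named windows, those of Phf10, Satb1, Cyb5a and Psat1 then changed sign in Stat5a-/-, to 0.52, 0.38, 0.55 and 0.095, and that of Crisp1 from 1.46 to -0.92. In Stat5b-/- those of Phf10, Dtx4 and Mbp changed sign, to 0.35, 0.84 and -0.0054. With the limit at the median of chromosomes 1 to 16, also chosen after seeing the data, 20 windows were at or below it. Without the MHC and interferon genes, chosen after seeing the data, the Stat5b-/- median of chromosome 17 was 0.089. With an absolute log2 fold change of at least 1 as well, 21 windows rose and 9 fell in Stat5b-/-, 206 genes were higher in Stat5a-/-, and 167 genes rose and 101 fell in Stat5b-/-. A mean of at least 100 counts gave a Stat5a-/- gene median of 0.47. The cause of these moves was not tested.

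Leaving out each library in turn gave Stat5a-/- window medians of 0.46 to 0.49, 0.45 to 0.54 and 0.38 to 0.41 on chromosomes 17, 18 and 19, and Stat5b-/- medians of 0.11 to 0.13, -0.08 to -0.04 and -0.02 to 0.02. It gave an interquartile range of 0.33 to 0.46, 19 to 27 windows at or below 0, 59 to 77 windows that rose and 51 to 85 that fell in Stat5b-/-, 632 to 808 genes higher and 76 to 91 lower in Stat5a-/-, and 306 to 380 that rose and 248 to 344 that fell in Stat5b-/-. The gene median was 0.43 to 0.46 in Stat5a-/- and -0.00216 to 0.0565 in Stat5b-/-, where it was below 0 without replicate 1 of Stat5b-/-.

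Libraries of the same replicate number had a mean correlation of deviations of -0.13 over 9 pairs, beside 0.06 over 18 pairs of different number. With the replicate block, 66 windows rose and 60 fell in Stat5b-/-, 684 genes were higher and 79 lower in Stat5a-/-, 342 rose and 270 fell in Stat5b-/-, and the gene medians were 0.45 and 0.04. Windows with few reads and 1 line per genotype limit what these libraries can show.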
